A study of Mus musculus with 2 samples.

Results

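The 9 genes described here encode the neurofilament subunits Nefl, Nefm, Nefh and Ina, the growth cone protein Gap43, the early neuronal proteins Tubb3, Dcx and Stmn2, and the neuronal transcription factor Myt1l. They are 9 of the 32285 genes in the files and were taken as a given list, with the question whether lesion cells of the mutant gain Tubb3, Dcx and Stmn2 without neurofilaments. The list was drawn up with UMI counts of these genes in both libraries in view, so their levels are given as a description and no level is tested. Cerebella of E16.5 mouse embryos were profiled by droplet RNA sequencing of single cells, which reads transcript 3′ ends and counts each captured molecule once by its UMI, a molecular barcode. The control library came from cre-negative embryos; which floxed alleles they carried is not given in the sources read for this work. The mutant library came from lesioned cerebella that carried Blbp-cre together with Ctnnb1(ex3)fl/wt and Smarca4fl/fl. Cre driven by Blbp, a gene of radial glia, deletes exon 3 from 1 copy of Ctnnb1, which stabilises beta-catenin, and inactivates Smarca4, the ATPase of BAF chromatin remodelling complexes. Each library was a pool of 3 samples with no key from cells to animals. With 1 library per genotype no difference could be tested, and every interval given is a 95% counting interval that leaves out the spread between animals.

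Neurofilaments are the intermediate filaments of axons, built from the light (Nefl), medium (Nefm) and heavy (Nefh) subunits and alpha-internexin (Ina). In developing neurons Ina is known to appear early, Nefl and Nefm with axon growth and Nefh late, as axons thicken. Tubb3, a neuron-specific beta-tubulin, and the microtubule regulators Dcx and Stmn2 mark cells that have just left the cell cycle and begun to extend processes.

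Upstream sequence was at hand for 4 of the 9 genes (Ina, Tubb3, Dcx and Myt1l, from the RefSeq promoter table on GRCm38.p6). The windows of Ina, the neurofilament subunit most raised in lesion cells, and of Myt1l, the member above background in all 6 lesion clusters together with Tubb3, are shown. Each is the 250 bases before an annotated start, 5′ to 3′ on the plus strand: chr19:47014431-47014680 for Ina and chr12:29528134-29528383, the first of 5 windows, for Myt1l. Capitals mark matches to any of 5 motifs searched on both strands: the E-box CAGCTG, the TCF/LEF core CTTTGAT, the Rest half-sites TTCAGCACC and GGACAGC, and TATAAA.
Ina: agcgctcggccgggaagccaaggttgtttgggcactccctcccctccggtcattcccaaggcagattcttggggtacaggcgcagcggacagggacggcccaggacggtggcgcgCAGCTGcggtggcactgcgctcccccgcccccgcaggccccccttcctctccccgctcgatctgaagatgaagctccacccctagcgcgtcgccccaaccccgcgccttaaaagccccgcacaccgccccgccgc
Myt1l: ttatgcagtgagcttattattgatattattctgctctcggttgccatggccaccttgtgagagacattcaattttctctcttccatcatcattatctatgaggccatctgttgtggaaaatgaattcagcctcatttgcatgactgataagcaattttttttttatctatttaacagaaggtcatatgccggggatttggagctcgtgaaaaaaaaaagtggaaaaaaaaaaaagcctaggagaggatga
Ina held CAGCTG once, and this Myt1l window held none of the 5. Another Myt1l window, chr12:29534655-29534904, held CAGCTG and GGACAGC once each. Over all 32851 RefSeq windows of that length, 13.0% held CAGCTG, 12.4% TATAAA, 3.21% CTTTGAT, 5.28% GGACAGC and 0.301% TTCAGCACC. These are matches of letters and show no binding.

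After filtering, 15879 control and 15655 mutant cells remained, with medians of 9994 and 9660 UMIs per cell, and 61 cell barcodes occurred in both libraries. Cells were clustered without the 9 genes, into 34 clusters. Lesion clusters were those that made up a mutant share 5 or more times their control share and in which at least 50% of mutant cells held 2 or more UMIs of 10 Wnt target genes after thinning to 3000 UMIs. There were 6, numbered 0, 1, 21, 26, 30 and 33, with 6930 mutant and 39 control cells, and since they come from 1 library, a property of that library and of a cell type cannot be told apart. Cluster 1 carried progenitor or astroglial markers (6 of 10), dividing-cell genes led cluster 21, and the rest had no name. The general neuronal markers summed to 2279 CPM (UMIs of a gene or list per 1000000 UMIs of the group) in lesion clusters, 1241 in control progenitor-like cells and 5093 in control neuron-like cells, and the neural progenitor markers to 3817, 23637 and 276 CPM. Haemoglobin UMIs were 7.56% of control and 8.80% of mutant UMIs, and their part in the values was tested only by leaving them out of totals. Counts at transcript 3′ ends cannot show an exon deletion. Smarca4 stood at 45.6 CPM in lesion clusters and 43.5 in control progenitor-like cells, and Ctnnb1 at 235 and 186 CPM.

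Lesion cells carried far more Tubb3 and Myt1l than control progenitor-like cells, moderately more Stmn2, Dcx and Ina, and little Nefl or Nefm. Against control neuron-like cells they were low in every member except Myt1l and Nefh, the latter near 0 in both. Neuron-like cells are clusters with at least 4 of 8 general neuronal markers enriched, 3436 control cells that include differentiating granule neuron-like (1569), unipolar brush cell-like and brainstem neuron-like clusters. Progenitor-like control cells numbered 1981. All members but Nefh reached 10 CPM in either group, and 8 of these 8 were at least 1.5-fold higher in lesion clusters than in control progenitor-like cells, where 17.7% of all genes were that much higher and 20.8% that much lower. Against control neuron-like cells 7 of 8 were at least 1.5-fold lower, where 13.9% of all genes were, and 0 were at least 1.5-fold higher, where 21 percent of genes were. The list was chosen with these counts in view, and nothing is read from them.

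**Figure D1:**
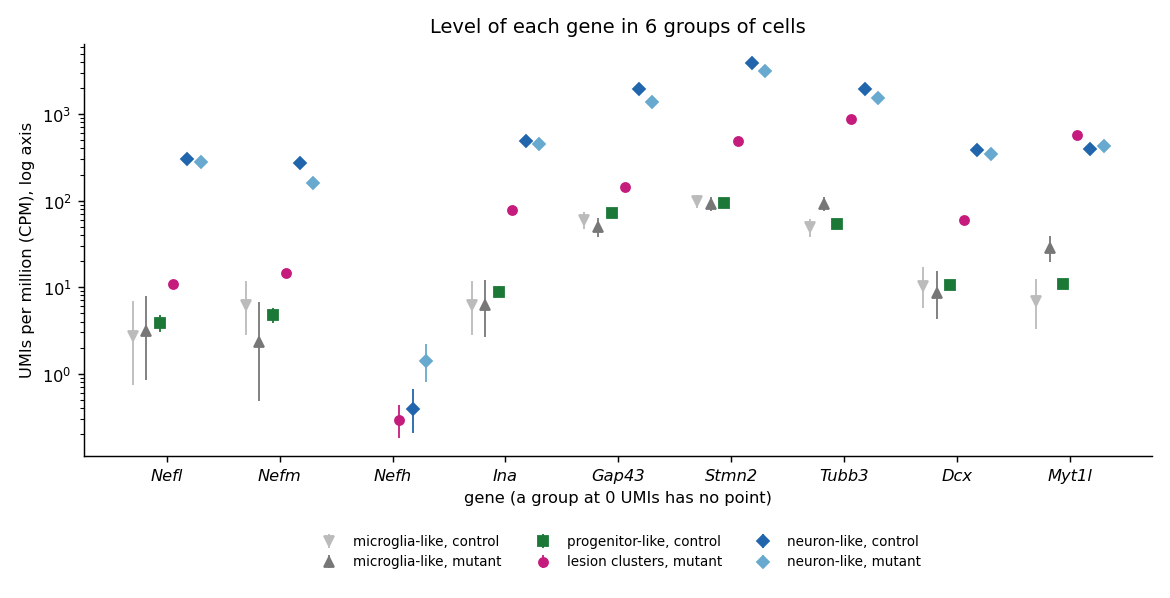
Level of each gene, in CPM on a log axis, in 6 groups of cells: microglia-like, progenitor-like and neuron-like control cells, lesion clusters, and microglia-like and neuron-like mutant cells. Bars are 95% counting intervals; lesion clusters (pink) sit near the neuron-like groups for Tubb3 (880 CPM) and Myt1l (571 CPM) and near the progenitor-like control for Nefl (10.9 CPM) and Nefm (14.4 CPM).

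The 9 genes also gave UMIs in cells that should lack them, the background that free RNA in droplets gives. In 6 such classes (erythroid-like, microglia-like, endothelium-like, pericyte-like, fibroblast-like and choroid plexus epithelium-like cells), control cells held 2.73 to 6.49 CPM of Nefl, 39.6 to 78.2 CPM of Tubb3 and 79.5 to 151 CPM of Stmn2. Control progenitor-like cells fell within the range of these classes for all 9 genes, so the folds over progenitor-like cells are folds over that background. In the mutant library the same classes reached at most 3.62 CPM for Nefl, 10.4 for Nefm, 15.4 for Ina, 58.6 for Gap43, 126 for Stmn2, 98.6 for Tubb3, 11.8 for Dcx and 42.8 for Myt1l. Tubb3 and Myt1l exceeded these maxima in 6 of 6 lesion clusters and Stmn2 and Nefm in 5, whereas Nefl, Ina and Dcx did so in 4 and Gap43 in 3.

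Tubb3 was the early neuronal gene with the widest gap. It stood at 53.1 CPM in control progenitor-like cells, 880 CPM in lesion clusters and 1941 CPM in control neuron-like cells, which puts lesion cells 16.6-fold (15.6 to 17.6) above the first and 2.21-fold below the second. By cluster the level ran from 160 CPM in cluster 1 and 239 CPM in the dividing cluster 21 to 643 CPM in cluster 30, 847 CPM in cluster 26, 982 CPM in cluster 33 and 1432 CPM in cluster 0. At 3000 UMIs per cell, 64.6% of lesion cells had a Tubb3 UMI, 12.1% of control progenitor-like cells and 94.1% of control neuron-like cells. In microglia-like mutant cells, which should lack it, the share was 14.3%, at median depths of 8615 UMIs there and 10086 in lesion cells. The share in lesion cells is above that background of the same library. For control progenitor-like cells the background is that of the control library, where the 6 non-neuronal classes held 39.6 to 78.2 CPM, a range that holds their 53.1 CPM.

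Stmn2, which binds tubulin and promotes microtubule turnover in growth cones, stood further from the neuronal level in the lesion. Its level was 94.8 CPM in control progenitor-like cells, 494 CPM in lesion clusters and 3899 CPM in control neuron-like cells. Lesion cells were 5.21-fold (4.98 to 5.44) above progenitor-like and 7.90-fold below neuron-like control cells. Clusters 26 and 33 were highest (1073 and 937 CPM), cluster 0 held 614 CPM, and cluster 21, at 108 CPM, lay within the range of the non-neuronal classes. Dcx, a microtubule-binding protein of migrating neurons, had 10.7 CPM in progenitor-like control cells, 59.5 CPM in lesion clusters and 380 CPM in neuron-like control cells. Its folds, 5.55 above and 6.39 below, were close to those of Stmn2. Within the lesion Dcx was within the background range in clusters 1 (7.90 CPM) and 21 (10.8 CPM) and highest in cluster 33 (168 CPM).

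The balance among the early genes was inverted in the pooled lesion clusters, though not in each of them. Of all Tubb3, Dcx and Stmn2 UMIs, Tubb3 gave 61.4% and Stmn2 34.4% in lesion clusters, against 31.2% and 62.7% in control neuron-like cells. Cluster 0 held 80366 of the 108730 early UMIs of the pool. Tubb3 led in clusters 0 (66.9%), 21 (66.9%) and 30 (70.4%), and cluster 33 was near even (47.1% and 44.9%). Stmn2 led in clusters 1 (34.7% Tubb3 and 63.6% Stmn2) and 26 (42.7% and 54.1%). A balance like that of the pool also occurred in the control library. Cluster 23, unnamed and led by Tal2, Lhx2 and Dbx1, had 57.0 Stmn2 UMIs per 100 Tubb3 UMIs in control cells, beside 56.1 in lesion clusters and 201 in control neuron-like cells.

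Ina was the neurofilament subunit furthest above background in lesion cells. It stood at 8.88 CPM in control progenitor-like cells, 77.4 CPM in lesion clusters and 484 CPM in control neuron-like cells, 8.72-fold (7.55 to 10.1) above and 6.25-fold below. Those UMIs came mostly from cluster 0 (130 CPM), with 89.5 CPM in cluster 26 and 83.0 CPM in cluster 33. In clusters 1, 21 and 30 it held 11.1, 16.2 and 11.6 CPM, at or next to the background maximum of 15.4 CPM. Ina, Dcx and Stmn2 were thus all above that background in clusters 0, 26 and 33, but apart elsewhere: Stmn2 also exceeded it in clusters 1 and 30, Dcx in cluster 30, and Ina marginally in cluster 21.

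Nefl and Nefm stayed low. Nefl, the core subunit, was at 3.80 CPM in control progenitor-like cells (83 UMIs), 10.9 CPM in lesion clusters (827 UMIs) and 305 CPM in control neuron-like cells. Nefm, which sets filament spacing, was at 4.71, 14.4 and 268 CPM in the same groups. Lesion cells thus held 2.87-fold (2.29 to 3.64) and 3.06-fold (2.5 to 3.78) more than progenitor-like cells, and 28-fold and 18.6-fold less than neuron-like cells. With called doublets kept, the log2 ratio of Nefl to progenitor-like cells turned from 1.31 to -0.23 and that of Nefm went from 1.43 to 0.20; the cause was not tested. The deficit of Nefl against neuron-like cells was -4.68 and became -4.57. Within the lesion, cluster 33 had the most of both (26.8 CPM of Nefl and 61.7 CPM of Nefm), then cluster 26 (22.2 and 32.4 CPM). Cluster 0, highest for Tubb3, had 15.2 and 14.7 CPM, and clusters 1 and 21 had Nefl at 2.97 and 2.77 CPM, within the background range. The annotated spans of Nefl (chr14:68083863-68089095, plus strand) and Nefm (chr14:68082590-68124846, minus strand) overlap on GRCm38. The sources read for this work do not say whether counting used strand, so their UMIs may not be fully separate.

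Nefh, the subunit of mature large axons, was nearly undetected. Lesion clusters held 22 Nefh UMIs (0.290 CPM), 20 of them in cluster 0. Control progenitor-like cells held 0, which allows up to 0.137 CPM, and control neuron-like cells held 13 (0.390 CPM). Over all kept cells there were 58 UMIs in the mutant and 25 in the control library. The gene did not reach 10 CPM in any group compared, control neurons included.

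Gap43, a membrane protein that drives growth cone sprouting, stood further below the neuronal level than Tubb3 in the lesion. It was at 71.5 CPM in control progenitor-like cells, 145 CPM in lesion clusters and 1944 CPM in control neuron-like cells, 2.02-fold (1.92 to 2.13) above and 13.4-fold below. The excess over progenitor-like cells rested on cluster 0 (236 CPM). Clusters 33 and 26 had 209 and 171 CPM, while clusters 1, 21 and 30 had 27.6, 26.3 and 37.7 CPM, less than the progenitor-like control. Without cluster 0 the log2 ratio of Gap43 to progenitor-like cells turned from 1.006 to -0.37, and with called doublets kept it was 0.14.

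Myt1l, a zinc finger factor that represses non-neuronal genes in neurons, was the only member higher in lesion cells than in neurons. It went from 10.8 CPM in control progenitor-like cells to 571 CPM in lesion clusters, 52.7-fold (46.4 to 60.1), beside 395 CPM in control neuron-like cells, a ratio of 1.45 (1.42 to 1.48). Like Tubb3 it was above background in all 6 lesion clusters: 390 CPM in the progenitor-like cluster 1, 314 CPM in dividing cluster 21, 239 CPM in cluster 30, 271 CPM in cluster 26, 187 CPM in cluster 33 and 812 CPM in cluster 0. The excess over neurons came from cluster 0, without which the log2 ratio of 0.53 became -0.23. Of lesion cells with 0 UMIs of Tubb3, Dcx and Stmn2 at 3000 UMIs, 38.7% had a Myt1l UMI, against 2.32% of such control progenitor-like cells. In microglia-like mutant cells 3.30% had one. Myt1l spans 395 kb (chr12:29528384-29923213), the longest span of the 9, and the sources read for this work do not say whether reads in introns were counted.

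Cluster 0 and called doublets moved the sizes of these folds. On the log2 scale with 1 CPM added, the ratios to control progenitor-like cells were 4.03 for Tubb3, 2.37 for Stmn2, 2.37 for Dcx, 2.99 for Ina and 5.59 for Myt1l. Without cluster 0 they were 2.66, 1.98, 1.12, 1.43 and 4.83, and with called doublets kept 2.78, 1.17, 1.24, 1.60 and 4.45. All 5 genes stayed at least 1.5-fold higher in lesion cells under both changes. Nefm was at 1.41 without cluster 0 and Nefl at 0.68, but with called doublets kept Nefm lay inside 1.5-fold and Nefl turned sign.

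**Figure D2:**
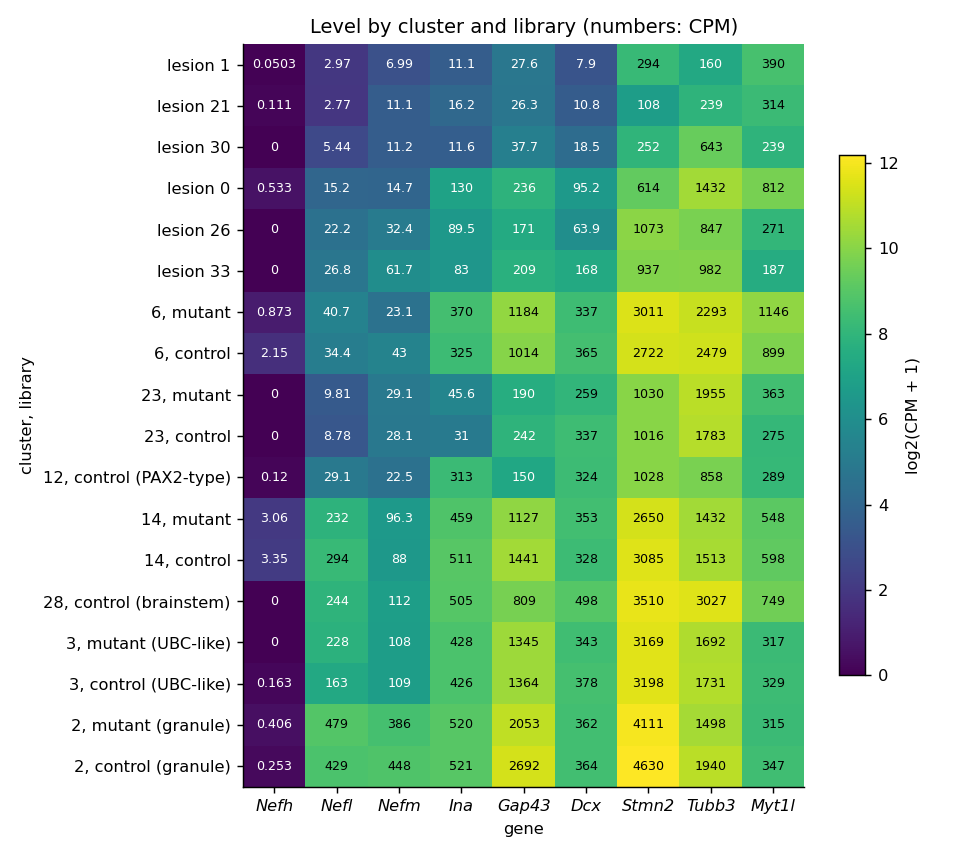
Level of the 9 genes (columns) in the 6 lesion clusters and 7 other clusters with neuronal genes (rows, by library), coloured by log2(CPM + 1), with the CPM printed in each cell; only groups of at least 50 cells are shown. Lesion clusters are dark for Nefl and Nefm (at most 26.8 and 61.7 CPM) while Tubb3 and Myt1l are bright in rows where Ina and Gap43 are not.

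How far neurofilaments lagged depended on which early gene they were set against. Per 100 UMIs of Tubb3, Dcx and Stmn2 together, the 4 subunits gave 7.19 UMIs (7.02 to 7.35) in lesion clusters, 17.0 (16.8 to 17.2) in control neuron-like cells and 17.9 in mutant neuron-like cells outside the lesion. Nefl, Nefm and Nefh alone gave 1.79 against 9.22, and Ina 5.40 against 7.78. Most of the shortfall therefore lay in Nefl and Nefm. Against Tubb3 alone both parts were short, Nefl, Nefm and Nefh with 2.91 against 29.6 UMIs per 100 and Ina with 8.79 against 24.9. Against Stmn2 alone Ina was not short at all (15.7 against 12.4 per 100), while Nefl, Nefm and Nefh remained low (5.19 against 14.7). All 4 subunits together were then at 20.9 against 27.1 per 100, a ratio of 0.769.

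A low Nefl and Nefm share was not limited to lesion clusters. Control PAX2-type GABAergic interneuron-like cells (873 cells), inhibitory neurons still migrating at this age, had 2.34 Nefl, Nefm and Nefh UMIs per 100 early UMIs, with 14.2 of Ina. Control cells of cluster 23 had 1.18 and 0.990, lower in both than lesion clusters. Mutant cells of cluster 6, an unnamed cluster led by Ndst4, Tfap2d and Cntn4 with 1350 mutant and 157 control cells, had 1.15 and 6.56. Cluster 6 was enlarged in the mutant, yet 9.03% of its mutant cells passed the Wnt read-out, so it was not a lesion cluster. Granule neuron-like control cells stood at the other end with 12.6 per 100. The value for all 4 subunits was not particular to the lesion either. It was 7.19 per 100 early UMIs in lesion clusters and 7.25, 7.22, 7.66 and 7.82 in control cells of clusters 8, 9, 4 and 7, none of them neuron-like. Those clusters had less Ina (3.32 to 4.27) and more Nefl, Nefm and Nefh (3.27 to 3.90) than lesion clusters. Control clusters ran from 2.17 in cluster 23 to 23.2 in cluster 22.

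**Figure D3:**
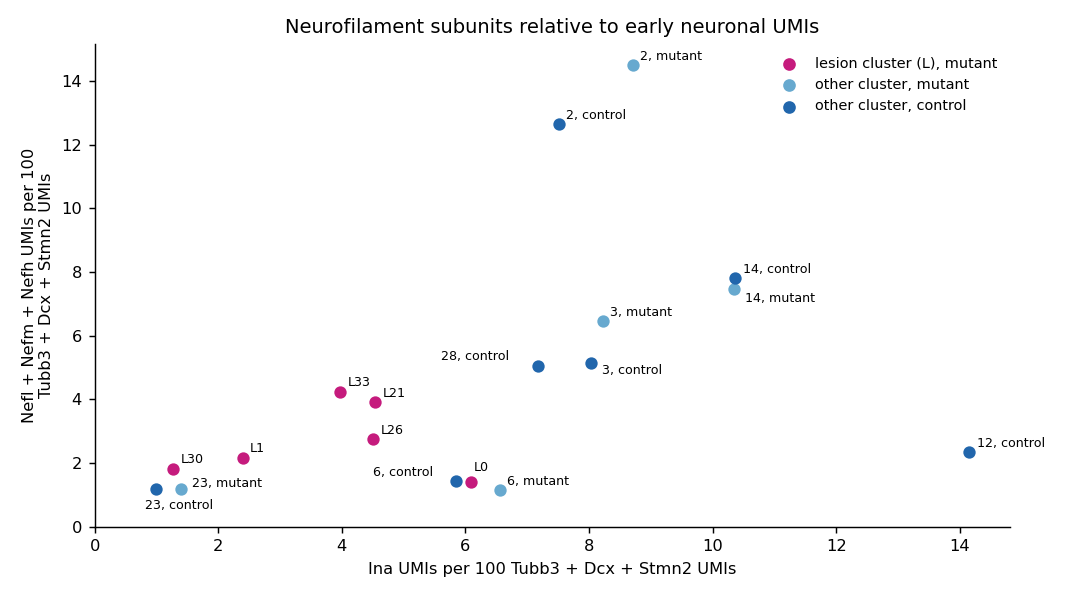
Nefl, Nefm and Nefh UMIs (vertical axis) and Ina UMIs (horizontal axis) per 100 Tubb3, Dcx and Stmn2 UMIs, 1 point per cluster and library; L marks lesion clusters. Lesion clusters lie at 1.42 to 4.24 on the vertical axis, below the granule neuron-like cluster 2 at 12.6 in control cells. Cluster 23, cluster 6 and the PAX2-type cluster 12 lie at 1.15 to 2.34. Lesion clusters 0, 1 and 30 fall in that range, and lesion clusters 26 (2.75), 21 (3.92) and 33 (4.24) lie above it.

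Cells were then matched on early neuronal UMIs, all thinned to 3000 UMIs. Among cells with 6 to 10 UMIs of Tubb3, Dcx and Stmn2, 32.1% of 917 lesion cells (29.0 to 35.2) had a neurofilament UMI, against 64.1% of 362 control neuron-like cells (58.9 to 69.0). The 2 groups had the same median of 8 early UMIs in that bin. Counting Nefl, Nefm and Nefh only, the shares were 8.40% (6.68 to 10.4) and 32.9% (28.1 to 38.0). Above 10 early UMIs, 49.3% of 832 lesion cells and 84.3% of 2262 neuron-like cells had any neurofilament UMI, and 13.0% and 57.6% one of Nefl, Nefm or Nefh, though the median of early UMIs was 15 in the former and 20 in the latter. Shares in lesion cells climbed with early UMIs, from 6.29% at 0, close to the 4.40% of microglia-like mutant cells, through 10.4% at 1 to 2 and 22.1% at 3 to 5. Neurofilament detection was therefore lower than in control neuron-like cells at matched sums of early UMIs, and not absent. The matched sums differed in make-up, since Tubb3 gave 61.4% of early UMIs in lesion clusters and Stmn2 62.7% in control neuron-like cells.

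The PAX2-type control cells gave a different match. With 6 to 10 early UMIs, 71.4% had a neurofilament UMI, and 12.2% one of Nefl, Nefm or Nefh (7.87 to 17.7), an interval that overlaps that of lesion cells. Above 10 early UMIs the latter share was 12.4% (8.21 to 17.8), beside 13.0% (10.8 to 15.5) in lesion cells. The wider gap to these neurons was in Ina, found in 69.3% of PAX2-type cells and 27.2% of lesion cells at 6 to 10 early UMIs. In unbinned sums Nefl, Nefm and Nefh were also lower in lesion clusters, with a ratio to PAX2-type cells of 0.764 (0.687 to 0.849) per early UMI. Per Tubb3 UMI that ratio was 0.483 (0.434 to 0.537), and per Stmn2 UMI it was 1.03 (0.927 to 1.15). In control cells of cluster 23 above 10 early UMIs, 22.1% of 68 cells (12.9 to 33.8) had a neurofilament UMI, below the lesion share.

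**Figure D4:**
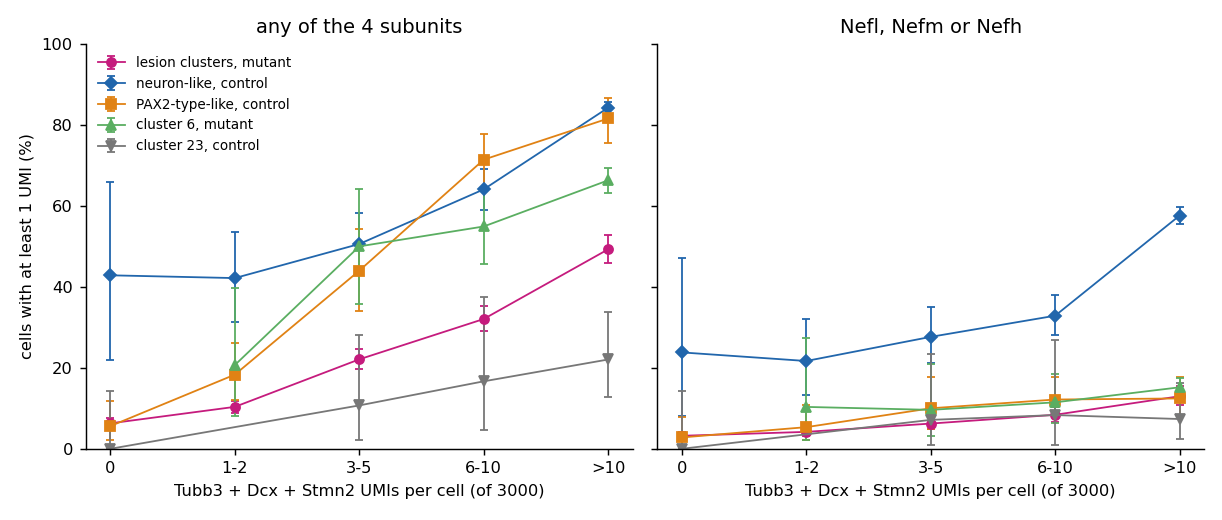
Share of cells with at least 1 UMI of any of the 4 subunits (left) or of Nefl, Nefm or Nefh (right) by the cell's Tubb3, Dcx and Stmn2 UMIs, all cells thinned to 3000 UMIs and only bins of at least 20 cells drawn; bars are exact binomial 95% intervals. Lesion cells (pink) run below control neuron-like cells (blue) in every bin, at 32.1% against 64.1% for 6 to 10 early UMIs, and on the right they meet the PAX2-type cells and cluster 6.

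Within the lesion the genes split by Wnt read-out. Between lesion cells with 0 or 1 and with 10 or more UMIs of the 10 Wnt targets (541 and 2552 cells, thinned), the mean of Stmn2 went from 3.48 to 0.846 UMIs per cell, Gap43 from 0.839 to 0.272, Dcx from 0.373 to 0.109 and Ina from 0.379 to 0.178. Nefl went from 0.0998 to 0.0235 and Nefm from 0.0887 to 0.0349. Tubb3 was nearly level, at 2.62 and 2.87, and Myt1l was higher in the latter, at 1.12 and 2.15. Through the bins of 2 to 4 and 5 to 9 Wnt UMIs each of these 8 genes moved one way at every step. Inside cluster 0 alone the split was alike: Stmn2 went from 3.73 to 1.03, Gap43 from 1.25 to 0.384 and Ina from 0.640 to 0.249, while Tubb3 had 4.35 and 4.18 and Myt1l 2.04 and 2.56. In cluster 1, Tubb3 went from 0.185 to 0.594 and Myt1l from 0.178 to 1.78. Ina (0.0148 to 0.0425) and Dcx (0.00741 to 0.0189) were, at these low levels, higher in the highest group than in the lowest. That is against the direction over all lesion cells. Dcx did not rise steadily, being highest at 2 to 4 Wnt UMIs (0.0255), and the lowest group held 135 cells. These cells come from 1 library, and the Wnt targets also chose the clusters, so the pattern is a description.

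**Figure D5:**
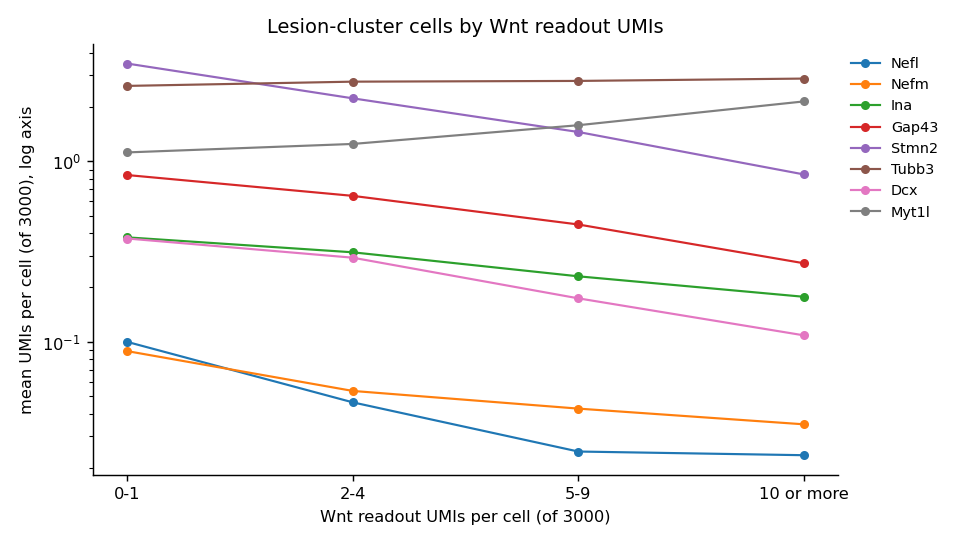
Mean UMIs per cell of 8 genes (log axis) in lesion cells grouped by their UMIs of 10 Wnt targets, all cells thinned to 3000 UMIs. From the lowest to the highest group Stmn2 goes from 3.48 to 0.846 while Tubb3 stays between 2.62 and 2.87 and Myt1l goes from 1.12 to 2.15.

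Summed over whole libraries the picture was of loss. Nefl was at 76.7 CPM in control and 33 CPM in mutant cells, Nefm at 68.0 and 25.2, Gap43 at 725 and 319, Stmn2 at 1320 and 825, and Dcx at 140 and 92.6. These 5 of 8 members were at least 1.5-fold lower in the mutant, where 5.87% of all genes were, Dcx only just with a ratio of 0.661. Ina (146 and 107 CPM) and Tubb3 (695 and 818 CPM) were within 1.5-fold. Myt1l alone was at least 1.5-fold higher, at 134 and 417 CPM, where 8.19% of all genes were. With haemoglobin and mitochondrial UMIs left out of the totals, 4 members were lower, as Dcx fell inside 1.5-fold. Fewer cells of a type and less RNA per cell cannot be told apart in such sums.

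Cell numbers moved with these sums. The granule neuron-like cluster, which held the highest Nefm, Gap43 and Stmn2 levels of all clusters, was 9.88% of control and 1.52% of mutant cells, and the PAX2-type cluster 5.50% and 0.0958%. Outside the lesion clusters 2 members remained at least 1.5-fold lower in the mutant, Nefm (68.2 and 33.9 CPM) and Gap43 (727 and 460 CPM), where 4.02% of genes were. Nefl, at 76.9 and 51 CPM, lay just inside 1.5-fold on the log2 scale with 1 CPM added. Myt1l remained higher (134 and 291 CPM), where 6.88% of genes were. The part of cell numbers in these values was not tested.

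Inside neuron-like clusters 2, 3 and 14, and in cluster 23, the members lay within 1.5-fold between libraries, whereas other clusters with some neuronal markers differed. In granule neuron-like cells Nefl was at 429 CPM in control and 479 CPM in mutant cells, Nefm at 448 and 386, Ina at 521 and 520, and Gap43 at 2692 and 2053. In unipolar brush cell-like cluster 3 Nefl was at 163 and 228 CPM, Nefm at 109 and 108 and Ina at 426 and 428. Across clusters 2, 3, 14 and 23 the count of members past 1.5-fold was 0 in either direction, beside 3.22% of all genes higher and 2.53% lower in cluster 2, 2.79% and 1.75% in cluster 3, 4.3% and 5.92% in cluster 14, and 5.25% and 4.75% in cluster 23. Members at 10 CPM or more, all 8 in clusters 2, 3 and 14 and all but Nefl in cluster 23, thus lay within 1.5-fold of control levels. In cluster 6 the 1 member past 1.5-fold was Nefm, at 43.0 and 23.1 CPM, on 60 control UMIs, where 4.15% of genes were that much lower and 6.56% higher. In unnamed cluster 19, led by Tac2, Nefl (135 and 247 CPM) and Nefm (63.5 and 116 CPM) were higher in mutant cells, where 11.7% of genes were, and 0 members were lower, where 3.22% of genes were. In unnamed cluster 8, led by Gm13479, Nefl was lower (45.7 and 29.8 CPM, on 22 mutant UMIs) and Myt1l higher (91.1 and 224 CPM), where 8.39% and 7.82% of genes were. In unnamed cluster 24, 5 members were lower (Nefl, Nefm, Ina, Gap43 and Dcx) and 2 higher (Tubb3 and Myt1l), where 13.2% and 11.9% of genes were. At Leiden resolution 2 the cluster with the same leading gene held 294 control and 13 mutant cells, so these may not be like cells. Over all neuron-like cells outside the lesion Nefm was the 1 member lower (268 and 158 CPM), where 3.06% of genes were, and 0 were higher, where 8.14% of genes were. The mix of clusters in that pool differed, with 1569 of 3436 control and 238 of 1327 mutant cells in granule neuron-like cluster 2. The part of this mix in the pooled Nefm value was not tested.

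Myt1l was the member that differed most widely outside neurons. It was at least 1.5-fold higher in mutant cells in 15 of 25 clusters with at least 50 cells from each library, and lower in 0. The share of all genes that much higher had a median of 6.56% over those clusters and ran from 1.47% to 83%, and that of genes as much lower had a median of 4.52% and ran from 0.631% to 24.4%. In the 6 non-neuronal classes its mutant level was 17.1 to 42.8 CPM and its control level 4.76 to 12.7 CPM, and in progenitor-like cells outside the lesion it was 21.8 and 10.8 CPM. There Myt1l was the 1 member higher, where 2.48% of genes were, and the background for lower genes was 3.05%. Tubb3, by contrast, was higher in 6 and lower in 2 of the 25, and Gap43 higher in 0 and lower in 8. In oligodendrocyte precursor-like cells (cluster 22, 141 mutant cells) 6 members were higher in the mutant, where 10.6% of genes were: Nefl (6.98 and 14 CPM), Ina (22.8 and 41.9), Stmn2 (73.9 and 162), Tubb3 (62.9 and 156), Dcx (36.0 and 59.2) and Myt1l (14.2 and 64.6). Nefm was lower there (10.2 and 5.99 CPM, on 9 mutant UMIs), where 4.27% of genes were. The mutant library held 6930 lesion cells with 571 CPM of Myt1l, and their part in its level elsewhere was not tested.

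The wider cytoskeletal and neuronal lists, fixed with earlier results known, are given by counts of genes at 10 CPM or more, to be read beside the 17.7% of all genes higher and 20.8% lower in that comparison with progenitor-like cells. Microtubule regulators were higher in lesion clusters than in control progenitor-like cells for 8 of 14 and lower for 2 (median log2 ratio 1.65, beside 0.05 for all genes). Stmn1, a tubulin-sequestering protein, led with 7249 against 866 CPM and Dclk2 was lowest with 69.9 against 154. Of tubulins 3 of 6 were higher and 0 lower, from Tubb4a (45.5 against 9.89 CPM) to Tubb2a (322 against 374). Growth cone and collapsin response genes were split, 6 of 14 higher and 3 lower, from Crmp1 (132 against 14 CPM) to Gpm6b (635 against 1432). Axon adhesion and guidance genes were higher for 7 of 11 and lower for 1, from L1cam (15.8 against 1.51 CPM) to Cntn1 (21.2 against 103). RNA-binding and mature neuron genes were higher for 14 of 18 and lower for 0, from the splicing factor Rbfox1 (2074 against 101 CPM) to Rbfox3 (16.7 against 18.0). Other intermediate filaments were lower for 2 of 2: Vim stood at 576 against 1707 CPM and the progenitor filament Nes at 8.77 against 62.7.

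Neuronal transcription factors and their repressor were higher for 12 of 14 and lower for 1, with the proneural factor Neurog2 highest (147 against 3.89 CPM). Rest, which represses neuronal genes in progenitors, was at 48.6 CPM in lesion clusters, 44.2 CPM in control progenitor-like cells and 2.76 CPM in control neuron-like cells. The pooled level of Rest hides a spread: it was at least 1.5-fold below control progenitor-like cells in clusters 26 and 33, where 27.4% and 25.4% of genes were. These clusters had the most Nefl, Nefm and Stmn2, and Dcx was highest in cluster 33. Tubb3, Ina, Gap43 and Myt1l were instead highest in cluster 0. A link between Rest and the members was not tested. Against control neuron-like cells, where 21 percent of all genes were higher and 13.9% lower, the factor list was lower for 10 of 16 and higher for 4, among them Neurog2, Rest and Sox11, microtubule regulators were lower for 9 of 14 and higher for 0, and RNA-binding and mature neuron genes lower for 17 of 20 and higher for 1 (Rbfox1, 2074 against 271 CPM). Tubulins were lower for 5 of 6 and higher for 0, growth cone genes for 9 and 2 of 14, and adhesion genes for 7 and 3 of 12, while Vim, the 1 filament gene measured there, was higher at 576 against 355 CPM.

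Over 59 groups of cells (cluster by library, at least 50 cells), the genes with the most similar levels were listed for each sum, as log2(CPM + 1) and with no test, since groups share libraries. For the neurofilament sum they included Sez6l2 (r = 0.961), Mmp24 (0.935), Scrt1 (0.926) and Actl6b (0.924). Sez6l2 stood at 16.1 CPM in lesion clusters and 116 CPM in control neuron-like cells. For the sum of Tubb3, Dcx and Stmn2 they were Actl6b (0.967), Scrt1 (0.949), Fam57b (0.949), Crmp1 (0.948) and Gng3 (0.946). Actl6b, a subunit of the neuronal BAF chromatin complex to which Smarca4 belongs, was at 53.7 CPM in lesion clusters and 131 CPM in control neuron-like cells. Among the members, Ina followed the early sum most closely of the neurofilaments (0.926), then Nefl (0.860) and Nefm (0.848), with Myt1l at 0.775.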

How the data were processed

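The authors deposited raw UMI counts for each gene in each barcode, made with Cell Ranger 7.0.1 on mm10, per the submitters' processing notes; the intron and strand settings were not stated there. Groups came from the genotype labels. Barcodes were kept with at least 1000 UMIs, 500 genes and at most 10% mitochondrial UMIs (16812 of 21457 control, 16482 of 21596 mutant), and 933 and 827 doublets called by Scrublet in scanpy 1.11.5 at a rate of 16% were removed. Kept cells held 174232552 (control) and 169320982 (mutant) UMIs. Values were brought to 10000 UMIs a cell and logged, and clustering used 2000 variable genes ranked within each library, 30 components, 15 neighbours and Leiden resolution 1, with no integration. The 9 genes, the 92 genes of 7 pathway lists and the Wnt targets were left out of it. A cluster was named at 3 or more and at least 50% of a type's markers enriched (log2 ratio of 1, detection in 10%), with the top 10 genes deciding between types; neuron-like needed the same of 8 neuronal markers. These naming thresholds, and the rule that erythroid-like cells hold at least 50% haemoglobin, were set after seeing the data, and rebuilt names may differ from the study's.

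UMIs were summed per group as CPM. Ratios of counts carry exact conditional binomial intervals, sums exact Poisson and shares Clopper-Pearson intervals at 95%, which cover counting error only. A gene entered at 10 CPM in either group and counted as higher or lower at 1.5-fold on log2 of CPM plus 1. No test was run. A count of 0 allows up to 3 counts. Shares used cells thinned to 3000 UMIs, which left out 2386 control and 2014 mutant cells. Named were all members, the genes with the highest and lowest ratio of each list, Rest, and the 5 genes most like each sum, except genes that are not reported here; lists and comparisons with 5 or fewer genes past 1.5-fold name further genes, chosen after their values were seen. The members and lists were chosen with earlier results of these data known. The steps from sums to ratios were tested on simulated data. The alternatives tried were all barcodes, doublets kept, other resolutions, other lesion rules, other totals, free RNA subtraction, other thinning, other early genes and other reference cells.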

Additional observations from a re-analysis of the deposited data

Results flagged for a closer look

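Among 25 clusters with cells from both libraries, 4 values stood out because a gene was higher in mutant cells of one cluster and lower in another. Stmn2 had a log2 ratio of 1.14 in cluster 17 (326 CPM in mutant, 147 in control cells; unnamed, with Ttc6 and Dnah12 among its leading genes) and of -1.85 in cluster 31 (78.8 and 287 CPM; unnamed, led by Ccn3 and Mgp). Tubb3 had a log2 ratio of 1.30 in the oligodendrocyte precursor-like cluster 22 (156 and 62.9 CPM) and of -2.02 in cluster 32 (173 and 703 CPM; unnamed, led by Hopx and Metrn). These differences between clusters were not tested, and clusters 31 and 32 held 99 and 102 control cells. Control cells of cluster 32 had a median of 5837 and a mean of 20617 UMIs, against 5024 and 7349 in its mutant cells. Cells with many UMIs therefore weigh heavily in its control level.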

How the results depend on the processing

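Log2 ratios here are of the sums, neurofilament (Nefl, Nefm, Nefh, Ina) or early (Tubb3, Dcx, Stmn2). In the whole library these were -0.80 and -0.31; with all deposited barcodes they were -0.85 and -0.33, and with haemoglobin and mitochondrial UMIs left out -0.79 and -0.29. Neurofilaments without Ina gave -1.29. For lesion clusters against control progenitor-like cells they were 2.499 and 3.17. They became 1.02 and 1.93 with called doublets kept, 2.12 and 2.18 at Leiden resolution 2, 2.99 and 3.62 with no Wnt requirement, 2.29 and 3.04 for mutant cells with 5 or more Wnt UMIs, 6.6 and 7.16 after subtracting free RNA at the erythroid-like level and 4.27 and 7.81 at the microglia-like level, 1.37 and 2.22 without cluster 0, and 2.86 and 3.48 without cluster 1. Resolution 0.5 moved the early sum to 3.30, leaving out cluster 21 to 3.31, Tubb3 alone to 4.03 and Stmn2 alone to 2.37, and dropping Ina moved the neurofilament sum to 1.48. Subtraction leaves progenitor-like levels near 0. The log2 ratio of neurofilament per early UMIs, lesion against control neuron-like cells, was -1.24. It was -1.11 at resolution 0.5 and at resolution 2, -1.20 with no Wnt requirement, -1.33 with 5 or more Wnt UMIs, -1.18 after erythroid-like subtraction, -2.37 without Ina, -2.22 with Tubb3 alone, -0.38 with Stmn2 alone, -1.12 with neuron-like at 3 of 8 markers, -1.20 against PAX2-type cells, -0.91 without granule neuron-like cells, -1.43 without cluster 0 and -1.19 without cluster 1. The difference in the share of cells with a neurofilament UMI at 6 to 10 early UMIs was -32.03 points; it was -24.48 without Ina, -24.00 at 6000 UMIs, -45.32 with Tubb3 alone, -39.37 against PAX2-type cells and -40.35 without cluster 0. For single genes against progenitor-like cells 106 of 108 alternative values kept their sign; Nefl turned from 1.31 to -0.23 with doublets kept and Gap43 from 1.006 to -0.37 without cluster 0. Against neuron-like cells 106 of 108 did, the exceptions being Myt1l without cluster 0 (from 0.53 to -0.23) and Nefh, near 0 throughout, at resolution 0.5, and for whole libraries 18 of 18. The alternatives with Tubb3 or Stmn2 alone, microglia-like subtraction, 3 of 8 markers, the other reference cells and the left-out clusters were added after seeing the data. No paired analysis was possible because each genotype is 1 pooled library. Nefh, with 22 UMIs in lesion clusters, is limited by depth.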

Other observations

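Cluster 24, an unnamed cluster present in both libraries (270 control and 217 mutant cells) and led by 9130015G15Rik and Thsd4, held the highest Myt1l level of any group, 1162 CPM in mutant cells beside 439 CPM in its control cells. The Wnt read-out was passed by 93.4% of its mutant and 53.3% of its control cells, so its mutant cells resembled lesion cells by that measure while the cluster was not enlarged. Nefl was at 7.81 CPM in its mutant and 46.6 CPM in its control cells, Nefm at 5.58 and 49.9 CPM, and Tubb3 at 299 and 198 CPM. At Leiden resolution 2 the cluster led by 9130015G15Rik held 294 control and 13 mutant cells. Most mutant cells of cluster 24 thus fell elsewhere at that resolution, and its mutant and control cells may not be of like type. The pattern of low Nefl and Nefm with high Myt1l also occurred in mutant cells outside the 6 lesion clusters as drawn at resolution 1.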
